A study of Mus musculus with 16 samples.

Results

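Signals of 36 mouse genes for conjugation and aldehyde-clearing enzymes were followed across 16 Affymetrix U74Av2 arrays, 4 of liver and 12 of embryonic stem (ES) cells. A gene was taken when its probe set carried a single symbol beginning with Gst, Ugt1, Ugt2, Sult or Aldh and then a letter or digit, and the probe set with the highest mean signal stood for it. The rule found 52 probe sets for the 36 genes, out of 12488 probe sets and 8252 singly named genes on the array. They comprise 15 glutathione S-transferase genes (Gst), 2 UDP-glucuronosyltransferase genes (both Ugt2), 9 sulfotransferase genes (Sult) and 10 aldehyde dehydrogenase genes (Aldh). A further probe set shared by 8 Ugt1 genes was left out because its signal cannot be given to one of them.

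The study compared lines and mice carrying 1 disrupted copy of Abca1, a cholesterol transporter, or of Cdk4, a cell cycle kinase, with +/+ controls. The 6 groups were livers labelled Abca1 +/- (2 arrays), +/+ livers (2 arrays), Cdk4 +/- ES cells (3 arrays), E14 ES cells (+/+, the control for Cdk4, 3 arrays), Abca1 +/- ES cells (3 arrays) and ESVJ ES cells (+/+, the parental line of the Abca1 mutant, 3 arrays). The livers came from mice of mixed 129/SvJ and C57BL6/J background, with neither sex nor age in the labels. The Abca1 +/- and ESVJ lines had been maintained on irradiated embryonic fibroblasts and were moved to gelatin, after removal of these feeders, for about 2 days, whereas E14 and Cdk4 +/- cells were feeder-independent. Each ES group is 1 line, and the labels do not say that its 3 arrays, or the 2 livers of a group, came from separate cultures or animals, so a p-value measures the spread between these samples only.

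These enzymes clear reactive and foreign compounds. Glutathione S-transferases join glutathione to electrophiles, UDP-glucuronosyltransferases add glucuronic acid to steroids, bilirubin and drugs, and sulfotransferases pass sulfate from an activated donor to phenols, steroids and amines, so that the products can be excreted in bile or urine. Aldehyde dehydrogenases oxidise aldehydes from alcohol, lipids, amino acids and retinal to acids. Hepatocytes are the main site of all these reactions in the body, while ES cells are undifferentiated, fast-dividing cells.

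The start regions of 6 genes are shown because each carries a result given further on: Ugt2b5, Sult3a1, Aldh1a7 and Gstt1 are, in each family, the gene with the largest liver excess among those with 1 listed start, and Gstp1 and Gsto1 had the largest fall and rise between the ES lines E14 and ESVJ. The sequences run 5' to 3' over 250 bases before and 50 after the start, from RefSeq (GRCm38.p6). Capitals mark matches on either strand to 6 motifs: the TATA box TATAAA, the CCAAT box, the GC box GGGCGG, the antioxidant response element core TGACNNNGC, the HNF1 motif GTTAAT and the AP-1 motif TGAGTCA, the last added after the Gstp1 sequence had been read. No 2 motifs share letters in these 6 regions.
Ugt2b5 (chr5:87140291-87140590, minus strand): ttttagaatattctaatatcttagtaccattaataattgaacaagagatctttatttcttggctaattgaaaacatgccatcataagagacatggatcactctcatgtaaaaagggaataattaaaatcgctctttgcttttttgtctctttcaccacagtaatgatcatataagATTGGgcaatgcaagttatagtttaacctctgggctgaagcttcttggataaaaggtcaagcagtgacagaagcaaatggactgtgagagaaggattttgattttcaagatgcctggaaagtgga
Sult3a1 (chr10:33857472-33857771, plus strand): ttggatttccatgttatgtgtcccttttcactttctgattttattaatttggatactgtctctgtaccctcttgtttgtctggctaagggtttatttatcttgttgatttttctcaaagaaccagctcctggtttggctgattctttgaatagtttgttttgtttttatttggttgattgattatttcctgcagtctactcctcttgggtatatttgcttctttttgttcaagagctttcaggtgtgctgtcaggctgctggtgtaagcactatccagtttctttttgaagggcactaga
Aldh1a7 (chr19:20727507-20727806, minus strand): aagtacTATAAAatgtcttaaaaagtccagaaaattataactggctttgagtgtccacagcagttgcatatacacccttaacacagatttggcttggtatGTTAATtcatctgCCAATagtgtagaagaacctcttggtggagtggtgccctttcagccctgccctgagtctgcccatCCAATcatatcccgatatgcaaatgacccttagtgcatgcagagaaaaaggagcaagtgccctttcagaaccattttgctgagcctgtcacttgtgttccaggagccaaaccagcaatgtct
Gstt1 (chr10:75797682-75797981, minus strand): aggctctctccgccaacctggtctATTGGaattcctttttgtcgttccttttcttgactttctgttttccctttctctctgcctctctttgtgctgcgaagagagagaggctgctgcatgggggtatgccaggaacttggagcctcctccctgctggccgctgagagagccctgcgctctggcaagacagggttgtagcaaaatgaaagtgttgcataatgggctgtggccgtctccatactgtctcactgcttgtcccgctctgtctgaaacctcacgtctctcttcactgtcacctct
Gstp1 (chr19:4037863-4038162, minus strand): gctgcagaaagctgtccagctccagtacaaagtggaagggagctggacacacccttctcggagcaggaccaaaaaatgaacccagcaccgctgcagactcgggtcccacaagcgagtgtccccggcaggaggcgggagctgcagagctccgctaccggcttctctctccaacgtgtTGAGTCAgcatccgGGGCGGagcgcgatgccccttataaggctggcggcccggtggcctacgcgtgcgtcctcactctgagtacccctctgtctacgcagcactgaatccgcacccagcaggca
Gsto1 (chr19:47854723-47855022, plus strand): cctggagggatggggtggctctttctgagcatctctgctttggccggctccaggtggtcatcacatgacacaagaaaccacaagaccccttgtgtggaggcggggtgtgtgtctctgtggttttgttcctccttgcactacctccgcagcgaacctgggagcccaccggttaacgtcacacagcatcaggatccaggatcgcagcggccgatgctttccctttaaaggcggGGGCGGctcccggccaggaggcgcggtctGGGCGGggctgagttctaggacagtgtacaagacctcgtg

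Ugt2b5 held 1 CCAAT box and 1 CpG dinucleotide, Sult3a1 none of the 6 motifs and no CpG, Aldh1a7 a TATA box, 2 CCAAT boxes and an HNF1 motif with 1 CpG, and Gstt1 a CCAAT box and 8 CpGs. Gstp1 held 1 GC box, 1 AP-1 motif and 20 CpGs, and Gsto1 held 2 GC boxes and 16 CpGs. For Sult3a1 and Gstt1 the annotated gene extends upstream of the region shown, so the listed start lies inside the gene and another start may exist. For comparison, of 32851 start regions of the same length 13.6% held TATAAA, 37.4% CCAAT, 35.7% GGGCGG, 12.4% TGACNNNGC, 7.1% GTTAAT and 5.2% TGAGTCA, and their median CpG count was 7. A start region was listed for 28 of the 36 genes, with 1 start for 22 of them. Among these, 9 genes that were higher in liver and averaged under 100 units in ES cells had a median of 1 CpG (0 to 8), and 9 that were higher in liver but at 100 units or more in ES cells had a median of 13 (2 to 21). GTTAAT occurred in 4 of the first 9 (Aldh1a7, Gsta3, Sult1a1 and Sult1d1) and in 0 of the second 9. GGGCGG occurred in 1 of the first 9 and in 6 of the second 9. A match to letters is a description and not a bound site, and these groups were formed from the signals, so no test was made.

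Signals are MAS5 values, brought on every array to a common 2% trimmed mean of 500 and called units; the level of one probe set cannot be set against that of another. A log2 change is a difference of mean log2(signal + 32), with its standard error (SE), and understates the change of genes near 0. "Passed" means an adjusted p under 0.05 over all probe sets whose mean signal in the arrays of the fit was at least 100 units.

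All 7 hepatocyte markers on the array were higher in liver and all 8 ES cell markers lower; the hepatocyte markers summed to 143551 to 187797 units in the 4 livers and 201 to 365 in the 12 ES arrays, and the ES markers to 478 to 764 in livers and 32439.6 to 62193 in ES arrays. Cdk4 averaged 3678 ± 209 units in Cdk4 +/- cells and 5716 ± 188 in E14 cells (SD, n = 3 each). Abca1 averaged 110 ± 14.8 in Abca1 +/- and 141 ± 38.1 in ESVJ cells, but read 699 and 555 in the livers labelled Abca1 +/- and 327 and 301 in +/+ livers, against the label. The first liver labelled Abca1 +/- also stood apart in RNA quality: its 3'/5' signal ratios were 4.10 for Gapdh and 8.24 for beta-actin, against 0.815 to 1.13 and 1.78 to 2.14 in the other 3 livers.

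Liver against ES cells showed the broadest difference of the family. Of the 36 genes, 31 reached the filter over all 16 arrays; 27 were higher in liver, 3 were lower and 1 did not pass, while 80.3% of all 7841 tested probe sets passed, 29.8% higher and 50.5% lower. Genes that reach the filter only through liver had to differ: 13 of the 27 averaged under 100 units in ES cells. These were both Ugt2 genes, all 6 Sult genes that were higher, Gsta3, Gstm6, Gstt1, Aldh1a1 and Aldh1a7. In the same way Aldh18a1, 1 of the 3 lower genes, averaged under 100 units in liver and reached the filter through ES cells. Among the 18 tested genes at 100 units or more in ES cells, 14 were higher, 3 lower and 1 did not pass. These 18 had a median change of 2.48 log2 units, and all 7231 probe sets at that level in ES cells -0.54, of which 24.3% were higher and 54.7% lower. In 13 of the 18 the 4 livers did not overlap the 12 ES arrays, compared with 47.1% of those probe sets (49.5% of all tested). Of all probe sets under 100 units in ES cells, which entered through liver, 94.9% were higher, beside 13 of 13 members. Tissue, RNA preparation and source (frozen organ or cultured line) differed together and cannot be told apart, and in such bulk samples fewer cells of a type cannot be told from less RNA per cell.

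**Figure D1:**
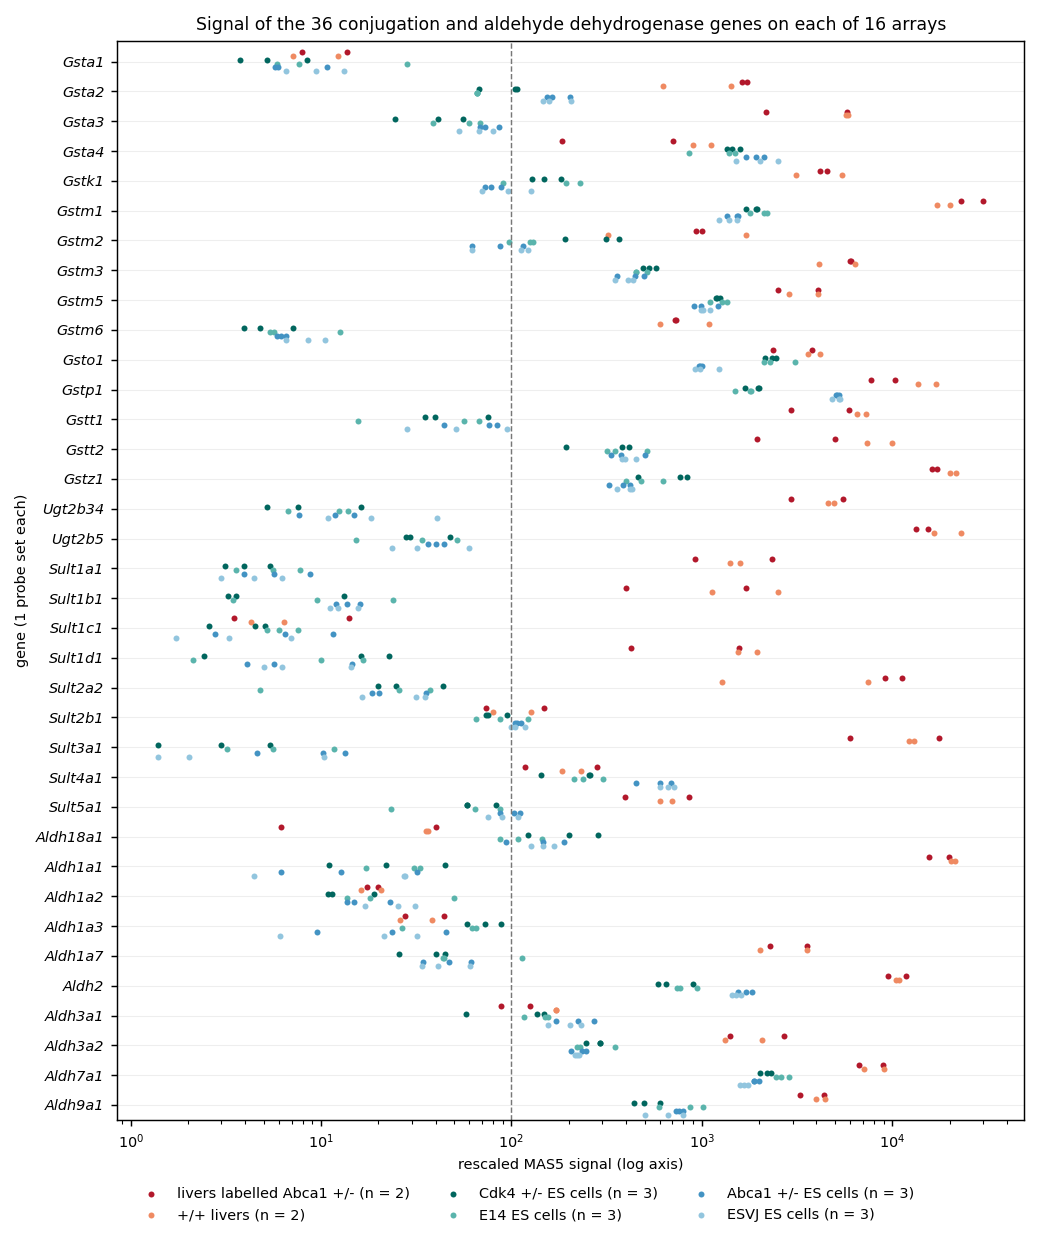
Rescaled MAS5 signal (log axis) of the 36 genes, 1 row per gene, with 1 point per array coloured by group; the dashed line is the filter at 100 units. Most liver points lie well right of the ES points, while Gsta4, Sult4a1 and Aldh18a1 lie to the left and Gsta1, Aldh1a2 and Sult1c1 stay under 50 units on all 16 arrays.

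Glucuronidation genes were near the floor in ES cells. Both Ugt2 genes reached the filter only through liver, so they had to be higher there. Ugt2b5, a UDP-glucuronosyltransferase abundant in liver, read 13391 and 15487 units in livers labelled Abca1 +/-, 16624 and 22838 in +/+ livers, and 15.2, 35.1 and 59.7 as lowest, median and highest in ES cells. Its log2 change was 7.95 (SE 0.17, adjusted p = 1.87e-17). Ugt2b34, of the same subfamily, read 2956, 5494, 4612 and 4918 units in the livers in that order, and 5.23 to 40.6 in ES cells, a log2 change of 6.61 (SE 0.18, adjusted p = 5.21e-16). For both genes every liver was higher than every ES array. Of the 4 tested genes listed for the sugar donor, the 3 that supply it were higher and Gusb, the glucuronidase that removes glucuronic acid, did not pass. Of all tested probe sets 29.8% were higher. Ugp2, which makes UDP-glucose, averaged 1028 units in liver and 132 in ES cells (log2 change 2.68), Ugdh, which oxidises it to UDP-glucuronic acid, rose by 2.34 on the log2 scale, and the transporter Slc35d1 by 1.72.

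Sulfotransferases divided into 6 genes higher in liver, 1 lower and 2 below the filter. All 6 averaged under 100 units in ES cells and reached the filter through liver. They therefore had to be higher there, and their p-values are no separate support. Over all tested probe sets 29.8% were higher and 50.5% lower. Sult3a1, which sulfates amines in the mouse, read 6019.5 and 17579.7 units in livers labelled Abca1 +/-, 12264 and 13085 in +/+ livers, and 1.40, 5.01 and 13.4 (lowest, median, highest) in ES cells, a log2 change of 8.24 (SE 0.20, adjusted p = 1.66e-16). Sult2a2, a hydroxysteroid sulfotransferase, read 11186, 9112, 7419 and 1283 units in the livers in the same order and 4.76 to 43.4 in ES cells, a change of 6.62 (SE 0.30, adjusted p = 8.76e-13). The 4 livers thus spread widely for Sult2a2 without reaching the ES range. Sult1a1 (phenols) rose by 5.35, Sult1d1 (catecholamines) by 4.89, Sult1b1 (thyroid hormones and phenols) by 4.82 and Sult5a1, whose substrates are little known, by 2.59, all without overlap. Sult4a1, an orphan sulfotransferase known from brain, fell by 0.85 on the log2 scale in liver (SE 0.19, adjusted p = 4.36e-04): its signal was 282, 117, 183 and 233 units in the livers and 143, 377 and 717 (lowest, median, highest) in ES cells. The tissues overlapped for Sult4a1, with E14 and Cdk4 +/- arrays at 143 to 303 units. Sult2b1, the cholesterol sulfotransferase, just missed the filter with a mean of 99.4 units, beside Aldh18a1 just inside it at 121, and Sult1c1 read at most 13.95 units on any array. All 3 tested genes of sulfate donor supply were higher in liver, led by Papss2, which makes the donor (726 units in liver, 46.7 in ES cells, log2 change 3.01).

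Glutathione S-transferases averaged over 100 units in liver apart from Gsta1, which stayed between 3.76 and 28.3 units on all 16 arrays. Of 14 tested genes 13 were higher in liver and 1 lower, beside 29.8% higher and 50.5% lower of all tested probe sets. Gstt1, Gsta3 and Gstm6 averaged under 100 units in ES cells and reached the filter through liver. They therefore had to be higher there, and their p-values are no separate support. Gstt1, of the theta class, read 2947 and 5895 units in livers labelled Abca1 +/-, 6514 and 7265 in +/+ livers, and 15.7, 53.7 and 94.3 in ES cells (lowest, median, highest), a log2 change of 5.997 (SE 0.23, adjusted p = 9.57e-14). Gsta3, an alpha class enzyme that detoxifies aflatoxin epoxide in mice, had 2166, 5754, 5734 and 5844 units in the livers and 24.4 to 85.7 in ES cells, a change of 5.66 (SE 0.20). Both genes were lowest, among livers, in the array with high 3'/5' ratios. Gstz1, which isomerises maleylacetoacetate in tyrosine breakdown, had 16143, 17119, 20168 and 21542 units in the livers and 324 to 837 in ES cells (5.21, SE 0.14). Gstk1, the mitochondrial and peroxisomal kappa enzyme, rose by 4.83.

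The mu class showed a gradient of tissue difference among 5 genes. Gstm6 rose by 4.36 on the log2 scale in liver, Gstm1 by 3.71, Gstm3 by 3.52, Gstm2 by 2.44 and Gstm5 by 1.53. Gstm1 read 30033 and 22998 units in livers labelled Abca1 +/-, 20205 and 17245 in +/+ livers, and 1234, 1624 and 2196 in ES cells. Gstm6 averaged 788 ± 210 units in liver (SD, n = 4) and 6.97 ± 2.45 in ES cells (SD, n = 12), Gstm5 3386 ± 809 in liver and 1133 ± 136 in ES cells. Gstm5 was thus well above the filter in both tissues, and Gstm6 in liver only. Gstm2 overlapped between tissues, because the second +/+ liver read 323 units and 1 Cdk4 +/- array 367. Members of the mu, alpha and pi classes are closely similar in sequence, and a probe set may read a neighbour. Second probe sets passed in the same direction with other sizes, at 0.74 log2 units for Gstm1, 0.47 for Gstm2, 2.65 for Gstm3, 1.03 for Gstm5 and 3.52 for Gstm6. A further Gstm5 probe set did not pass (0.27, adjusted p = 0.591).

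Gstp1, Gsto1 and Gsta4 were strong in both tissues. Gstp1, the pi class enzyme, had 7734, 10389, 13624 and 16998 units in the livers in the same order and 1495, 3420.0 and 5285 in ES cells (lowest, median, highest), a change of 1.93 (SE 0.10, adjusted p = 7.78e-12). Gsto1, the omega class enzyme that reduces dehydroascorbate, had 2355, 3807, 4162 and 3595 units in livers and 924, 1672 and 3085 in ES cells, a change of 1.12 (SE 0.13) with overlap. Gsta4, which conjugates 4-hydroxynonenal from lipid peroxidation, went the other way, with 184 and 703 units in livers labelled Abca1 +/-, 1121 and 894 in +/+ livers, and 853, 1553 and 2514 in ES cells. It fell by 1.35 on the log2 scale (SE 0.23, adjusted p = 3.12e-05). The lowest Gsta4 signal was that of the liver with high 3'/5' ratios; without that liver the fall was 0.91 (adjusted p = 9.93e-05), and with +/+ groups only it was 0.61 and did not pass (adjusted p = 0.0952). Of 4 tested glutathione supply genes 3 were higher in liver, Gclc by 2.03, Gclm by 1.54 and Gss by 1.21. Of 6 other glutathione-linked enzymes 5 were higher, among them the microsomal transferase Mgst1 at 14063 units in liver and 37.4 in ES cells (log2 change 7.61). The sixth, Ptges, was lower (-1.37). Of all tested probe sets 29.8% were higher and 50.5% lower, and Mgst1 reached the filter through liver.

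**Figure D2:**
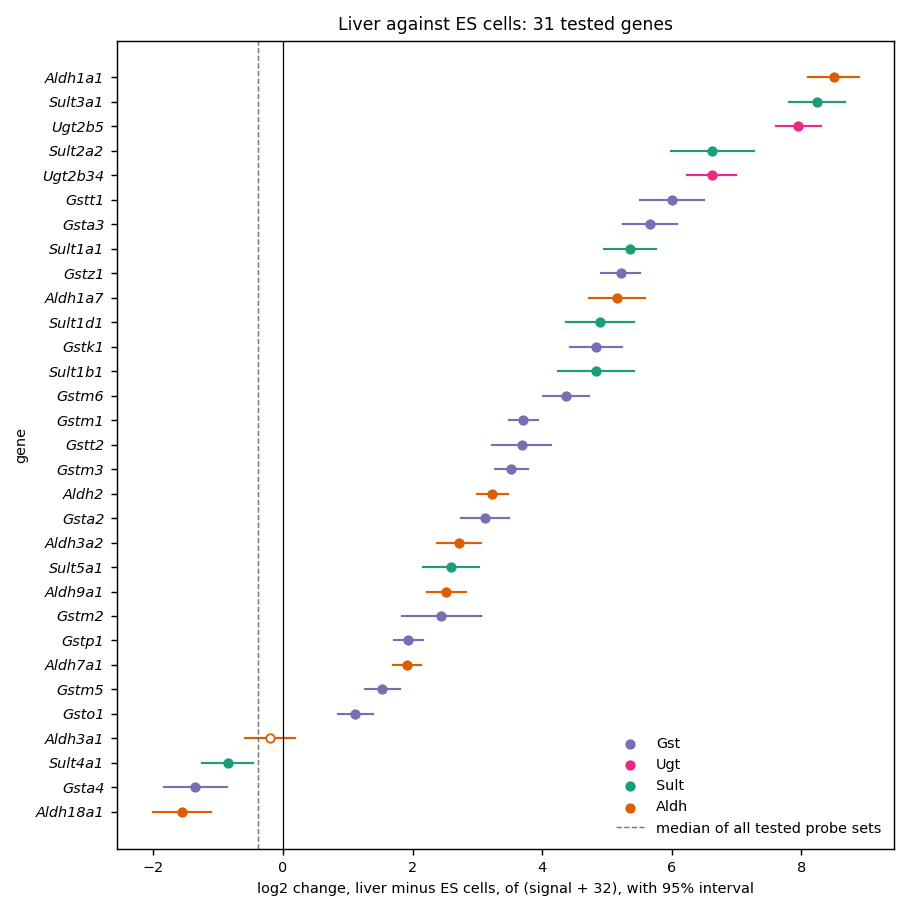
Log2 change of (signal + 32), liver minus ES cells, with its 95% interval for the 31 tested genes; filled points passed at an adjusted p of 0.05, colours mark the 4 families, and the dashed line is the median of all tested probe sets. Aldh1a1 (8.50), Sult3a1 (8.24) and Ugt2b5 (7.95) lie farthest right, Aldh18a1 (-1.56) farthest left, and the interval of Aldh3a1 includes 0.

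Aldehyde dehydrogenases held both the largest rise and the largest fall of the 31 genes on the scale used, though with 1 added in place of 32 Sult3a1 (10.93) rose more than Aldh1a1 (9.92). Aldh1a1, which oxidises retinal to retinoic acid, read 15511 and 19934 units in livers labelled Abca1 +/-, 21417 and 20281 in +/+ livers, and 4.43, 24.6 and 44.5 in ES cells (lowest, median, highest), a log2 change of 8.50 (SE 0.19, adjusted p = 2.97e-17). A second Aldh1a1 probe set averaged 108 units in liver and 93.6 in ES cells and was below the filter over all 16 arrays, so the change rests on 1 probe set. Aldh1a7, a close mouse relative of Aldh1a1, had 2284, 3581, 3554 and 2012 units in the livers and 25.8 to 114 in ES cells, a change of 5.15 (SE 0.21). Aldh1a1 and Aldh1a7 averaged under 100 units in ES cells and reached the filter through liver, so they had to be higher there. The retinal dehydrogenases Aldh1a2 and Aldh1a3 were below the filter, at 10.9 to 49.9 and 6.10 to 87.9 units over all ES arrays and at most 20.5 and 44.4 in liver. Aldh2, the mitochondrial enzyme that clears acetaldehyde, averaged 10642 ± 935 units in liver (SD, n = 4) and 1187 ± 460.3 in ES cells (SD, n = 12), a change of 3.23 (SE 0.11), and its other 2 probe sets gave 3.36 and 2.65. Aldh3a2 (fatty aldehydes) rose by 2.72, Aldh9a1 (aminoaldehydes, carnitine synthesis) by 2.52 and Aldh7a1 (lysine breakdown) by 1.91, each without overlap. Aldh3a1, a dehydrogenase best known from the cornea, averaged 139 units in liver and 168 in ES cells and did not pass (log2 change -0.20, 95% interval -0.59 to 0.19, adjusted p = 0.323). Aldh18a1, which makes the proline precursor pyrroline-5-carboxylate, fell by 1.56 (SE 0.21, adjusted p = 2.71e-06), with 40.3 and 6.19 units in livers labelled Abca1 +/-, 35.7 and 36.7 in +/+ livers, and 86.6 to 286 in ES cells. It averaged 29.7 units in liver and reached the filter only through ES cells, so it had to be lower in liver. A second Aldh18a1 probe set, below the filter, averaged 29.3 units in liver and 20.6 in ES cells. Of 11 tested alcohol and aldehyde partners 8 were higher in liver and 2 lower, beside 29.8% higher and 50.5% lower of all tested probe sets. The higher genes included Adh1 (alcohol dehydrogenase, 8.16 log2 units), and the lower ones were the reductases Cbr3 (-1.41) and Akr1b8 (-0.83).

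Regulators of these genes were measured on the same arrays. Of 8 tested, 6 were higher in liver and 2 lower. Cebpa rose by 4.13, Hnf4a by 3.30 and Nr1i3, the constitutive androstane receptor, by 3.23 log2 units. Nfe2l2, which drives antioxidant response genes, fell by 0.81 (-0.815), and Arnt, partner of the dioxin receptor, by 0.37. The change of Arnt was near the median of all tested probe sets (-0.38). Over the whole list of 45 tested pathway genes 36 were higher in liver and 5 lower. Of all tested probe sets 29.8% were higher and 50.5% lower.

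The +/+ lines E14 and ESVJ differed in a set of genes expressed in ES cells. The lines have separate origins and were cultured differently, and these cannot be told apart. Of 18 genes over the filter in ES cells, 3 were higher in E14 and 5 lower, 44.4% of those tested, near the 42.6% of all probe sets that passed (19.8% higher and 22.8% lower). In 11 of the 18 the lines did not overlap, against 52.0% of all probe sets. Beside them all 8 ES cell markers were lower in E14 (summed 32439.6 to 38078 units, against 53841 to 62092 in ESVJ), while the 8 feeder fibroblast markers had overlapping sums, 2238 to 2379 units in E14 and 2212 to 2381 in ESVJ, made of opposite moves. All 3 tested feeder markers passed: Col1a1 was higher, averaging 937 units in E14 and 388 in ESVJ, and Col1a2 (867 in E14, 1334 in ESVJ) and Fbln2 (128 in E14, 253 in ESVJ) were lower. The 3 bile duct markers, of which the keratins Krt7 and Krt19 were higher, summed to 3844 to 4178 units in E14 and 431 to 644 in ESVJ. The 4 stellate and smooth muscle markers summed to 3742 to 4688 in E14 and 743 to 994 in ESVJ, a gap made by Acta2 (4060.0 in E14, 653 in ESVJ). Of the others Des averaged 63.3 units in E14 and 95.3 in ESVJ, Rgs5 90.2 in E14 and 73.7 in ESVJ, and Hgf 7.24 in E14 and 9.36 in ESVJ. The part of any of these markers in the differences was not tested.

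Gstp1 showed the widest gap. It read 1784, 1808 and 1495 units in E14 cells and 4833, 5277 and 5285 in ESVJ cells, with no overlap, and fell by 1.58 on the log2 scale (SE 0.11, 95% interval -1.82 to -1.34, adjusted p = 5.59e-08). The mutant lines lay near their +/+ controls, with 1687, 2007 and 1973 units in Cdk4 +/- and 5065, 5258 and 5104 in Abca1 +/- cells. Gsto1 was the mirror image, with 2270.0, 2114 and 3085 units in E14 cells and 980.2, 1231 and 924 in ESVJ cells (log2 change 1.22, SE 0.15, adjusted p = 1.05e-05). Sult4a1 read 212, 237 and 303 units in E14 cells and 667, 600.0 and 717 in ESVJ cells, and fell by 1.30 (SE 0.21, adjusted p = 1.60e-04). None of the E14 arrays reached the ESVJ range in these 3 genes.

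Gsta2, an alpha class transferase, read 65.6, 65.7 and 66.3 units in E14 cells and 158, 146 and 206 in ESVJ cells (log2 change -1.03, SE 0.21, adjusted p = 9.94e-04). It averaged 79.4 units over E14 and Cdk4 +/- cells and 172 over ESVJ and Abca1 +/- cells. Gsta2 thus reached the filter only through the lines kept on feeders, and its p-value is no separate support. Aldh2 read 740.1, 766 and 947 units in E14 cells and 1615, 1442 and 1520.2 in ESVJ cells, and fell by 0.88 (SE 0.15, adjusted p = 3.21e-04); its other probe sets, at -1.23 and -0.65, also passed. Aldh7a1 rose by 0.65 (SE 0.11, adjusted p = 2.10e-04), and a second probe set by 0.46. These 3 genes kept their direction and passed in every alternative run. Gsta4 fell by 0.69 (SE 0.20, adjusted p = 0.0132), with 1501, 1392 and 853 units in E14 cells and 2009, 2514 and 1516 in ESVJ cells. Its groups nearly touch, and it did not pass without the third E14 array (adjusted p = 0.0653) or the second ESVJ array (adjusted p = 0.0701). Gstm1 rose by 0.55 (SE 0.12, adjusted p = 0.00245), with 2196, 2123 and 1801 units in E14 cells and 1234, 1535 and 1387 in ESVJ cells, but its second probe set fell by 0.56 (adjusted p = 0.0164). The direction of Gstm1 therefore depends on the probe set.

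**Figure D3:**
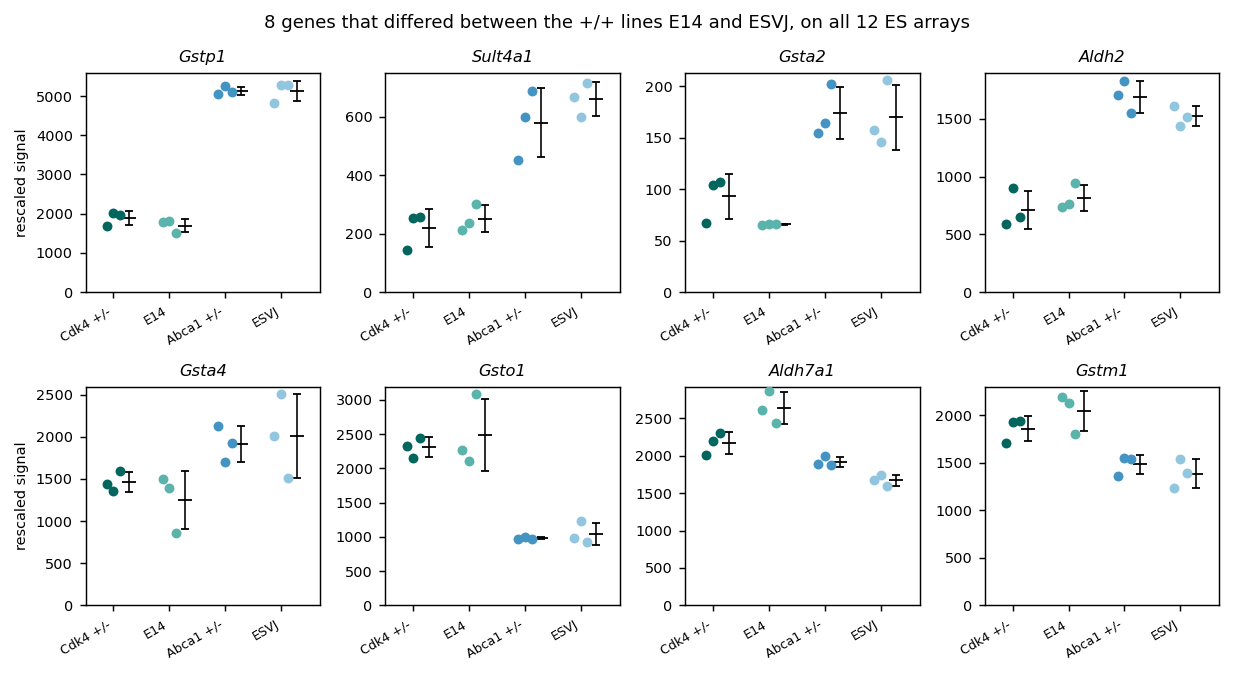
Rescaled signal (linear axes from 0) of the 8 genes that passed between E14 and ESVJ, on all 12 ES arrays, with points for arrays and black marks for mean and SD (n = 3). Gstp1, Sult4a1, Gsta2, Aldh2 and Gsta4 are lower, and Gsto1, Aldh7a1 and Gstm1 higher, in Cdk4 +/- and E14 cells than in Abca1 +/- and ESVJ cells, with overlap across the 12 arrays for Gsta4.

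Taking both lines of each pair, E14 and Cdk4 +/- against ESVJ and Abca1 +/-, 8 of 18 genes were higher and 6 lower, when 56.1% of all probe sets passed, 24.7% higher and 31.4% lower. All 8 genes named above passed again in their directions. The other 6 were Gstm2 (0.82), Gstk1 (0.66), Gstz1 (0.53), Gstm3 (0.26) and Gstm5 (0.24), which rose, and Aldh3a1, which fell by 0.62 on the log2 scale. Gstm2 and Gstk1 averaged 93.3 and 88.3 units in the lines kept on feeders, so they reached the filter through the feeder-independent lines. For Gstm2 the second probe set was lower in E14 than in ESVJ cells (-0.48, adjusted p = 0.0278). Gstm3 passed narrowly (adjusted p = 0.0449 in limma), and its second probe set lay lower in E14 than in ESVJ cells (-0.44, adjusted p = 0.0878). Other Gstm5 probe sets went both ways there without passing (0.45 and -0.32). The direction of Gstm2 and Gstm3 therefore depends on the probe set. Of the 18 tested genes, 8 had no overlap between 6 and 6 arrays, beside 29.4% of all tested probe sets. All 8 were among the 14 that passed. Gstp1 ranged over 1495 to 2007 units in the feeder-independent lines and 4833 to 5285 in the lines kept on feeders. Gsto1 ranged over 2114 to 3085 units in the feeder-independent lines and 924 to 1231 in the others. Aldh3a1 was the closest of these 8, with 58.0 to 155 units in the feeder-independent lines and 155 to 272 in the others. Of 32 tested pathway genes 7 were higher and 7 lower in E14 than in ESVJ cells, near the 19.8% of all probe sets that were higher and 22.8% that were lower in that comparison. Akr1b8, an aldo-keto reductase, fell by 1.54, Adh7 by 1.12 and Adh5, which oxidises the glutathione adduct of formaldehyde, by 0.67, while Slc35d1 rose by 0.84, Gsr, which regenerates glutathione, by 0.53 and Ahr, the dioxin receptor, by 1.76 log2 units.

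Loss of 1 Cdk4 copy was set against E14. Of 18 genes, 1 passed and was higher, 5.56% of the tested genes, against 4.91% of all probe sets (2.59% higher and 2.33% lower). Gstm2, a mu class transferase, read 367, 191 and 315 units in Cdk4 +/- cells and 126, 130.5 and 97.2 in E14 cells, without overlap, as was the case for 24.9% of all probe sets, and rose by 1.07 on the log2 scale (SE 0.26, 95% interval 0.51 to 1.63, adjusted p = 0.0333). A second Gstm2 probe set averaged 295 units in Cdk4 +/- and 247 in E14 cells (log2 change 0.23, adjusted p = 0.464). The call was lost when any of 5 of the 6 arrays was left out (adjusted p = 0.0627 to 0.151, all but the second Cdk4 +/- array), while the change stayed between 0.90 and 1.14 there.

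The next genes by p did not pass. Aldh9a1 read 495, 438 and 605 units in Cdk4 +/- cells and 1012, 866 and 597 in E14 cells (log2 change -0.63, SE 0.19, adjusted p = 0.0750), and passed without the third E14 array (-0.84, adjusted p = 0.0175). Aldh7a1 changed by -0.28 (adjusted p = 0.152), Aldh18a1 by 0.65 (adjusted p = 0.186) and Gstz1 by 0.41 (adjusted p = 0.268). For Gstp1, the change was 0.15 with a 95% interval of -0.09 to 0.40, and for Gsto1 -0.09 with an interval of -0.40 to 0.22. Among 32 tested pathway genes 3 passed, all lower, while 2.33% of all probe sets were lower. Gclm and Gclc, the modifier and catalytic subunits of the enzyme that begins glutathione synthesis, fell by 1.28 and 0.91 (adjusted p = 7.06e-04 and 0.00862), and Cbr3, a carbonyl reductase, by 1.12 (adjusted p = 0.00862). Gclm read 297, 366 and 351 units in Cdk4 +/- cells and 989, 885 and 732 in E14 cells, with no overlap, and Gclc read 225, 214 and 284 units in Cdk4 +/- cells and 453, 484 and 494 in E14 cells.

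**Figure D4:**
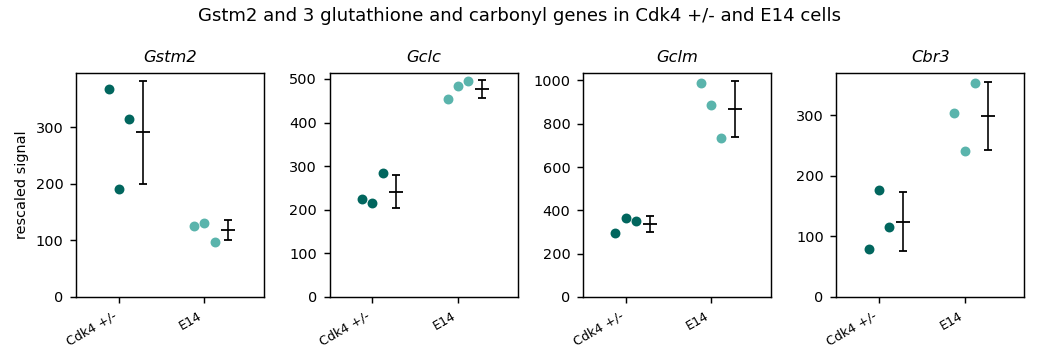
Rescaled signal (linear axes from 0) of Gstm2, Gclc, Gclm and Cbr3 in Cdk4 +/- and E14 cells, with points for arrays and black marks for mean and SD (n = 3). Gstm2 is higher, and Gclc, Gclm and Cbr3 lower, on every Cdk4 +/- array than on every E14 array.

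Loss of 1 Abca1 copy in ES cells gave no passing gene among 18 in limma, and 0 at an unadjusted p under 0.05, where 0.0272% of all probe sets passed. The smallest p-values belonged to Aldh7a1 (log2 change 0.20, 95% interval -0.03 to 0.42), Aldh9a1 (0.23, interval -0.18 to 0.64), Aldh2 (0.15, interval -0.18 to 0.47), Sult4a1 (-0.20, interval -0.64 to 0.25) and Gstm1 (0.10, interval -0.16 to 0.36), each with an adjusted p of 0.9997. Aldh7a1, at 1918 units in Abca1 +/- cells and 1669.5 in ESVJ cells, was the 1 gene without overlap, a pattern seen in 7.93% of all probe sets. Gstp1 averaged 5142 ± 102 units in Abca1 +/- cells and 5132 ± 259 in ESVJ cells (SD, n = 3 each). No pathway gene of 32 passed.

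The Cdk4 and Abca1 effects were compared directly in ES cells. None of the 18 genes passed (0.626% of all probe sets did), with 3 at an unadjusted p under 0.05: Gstm2 (difference 1.18, adjusted p = 0.147), Aldh9a1 (-0.86, adjusted p = 0.150) and Aldh7a1 (-0.48, adjusted p = 0.151). For Gstm2 the 95% interval of the difference ran over 0.39 to 1.98.

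Livers labelled Abca1 +/- were set against +/+ livers with 2 arrays each. None of 31 genes passed in limma, 4 had an unadjusted p under 0.05, and 0.014% of all probe sets passed. Gstt2, of the theta class, read 1959 and 4997 units in livers labelled Abca1 +/- and 7348 and 10005 in +/+ livers (log2 change -1.44, SE 0.45, adjusted p = 0.165). Gsta4 changed by -1.37 (SE 0.52, adjusted p = 0.209), with the 4 values given above. Sult2a2, higher in both livers labelled Abca1 +/- than in either +/+ liver, changed by 1.69 (SE 0.65, adjusted p = 0.217). Gstp1 changed by -0.76 (SE 0.34, adjusted p = 0.265) and Sult1d1, with 422 and 1568 units in livers labelled Abca1 +/- and 1555 and 1952 in +/+ livers, by -1.06 (adjusted p = 0.311).

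In 11 of the 31 genes the 2 liver groups did not overlap, compared with 51.7% of all probe sets; 8 of the 11 were lower and 3 higher in the livers labelled Abca1 +/-. The first of these livers, with the high 3'/5' ratios, was the lowest of the 4 in 18 of 31 genes, while it was lowest in 27.6% of all probe sets, and its members lay at a median of -0.37 log2 units from the mean of the other 3 livers against 0.22 for all probe sets. With it but without the second labelled liver 6 genes passed, all lower, including Gsta4 (-2.26), Gstt2 (-2.11) and Sult1d1 (-1.97); in that fit 22.8% of all probe sets passed, and 9.6% of all probe sets were lower, beside 19.4% of the 31 genes. Without the first +/+ liver Sult2a2 passed (2.95, adjusted p = 5.63e-04), which then rests on 1283 units in the remaining +/+ liver. The 4 genes on the array known to be higher in male liver summed to 1407 to 2172 units in livers labelled Abca1 +/- and 2654 to 4329 in +/+ livers; within the list Hsd3b5 averaged 157 in livers labelled Abca1 +/- and 1293 in +/+ livers, Cyp2d9 687 in livers labelled Abca1 +/- and 797 in +/+ livers, and Elovl3, below the filter, 19.9 in livers labelled Abca1 +/- and 8.01 in +/+ livers. Xist read 113 and 992 in livers labelled Abca1 +/- and 144 and 76.5 in +/+ livers, and the Y-linked Eif2s3y 56.8 and 22.3 in livers labelled Abca1 +/- and 47.9 and 21.9 in +/+ livers. No tested marker of other liver cells passed, yet the sums of some lists of such cells differed between the groups, in both directions. The 6 Kupffer cell and macrophage markers summed to 3747 to 6367 units in livers labelled Abca1 +/- and 2432 to 3249 in +/+ livers, and the 5 endothelial markers to 1176 to 1214 in livers labelled Abca1 +/- and 640 to 938 in +/+ livers, both without overlap. Csf1r, a macrophage receptor, read 1326 and 504 units in livers labelled Abca1 +/- and 218 and 195 in +/+ livers, and Cdh5, of endothelial junctions, read 413 and 363 in livers labelled Abca1 +/- and 62.6 and 163 in +/+ livers. Within these lists Cd5l, Cd68, Kdr and Tek were also higher without overlap, as was Marco near the floor. Clec4f, Adgre1, Pecam1 and Lyve1 overlapped, and Lyve1 averaged 66.2 units in livers labelled Abca1 +/- and 83.8 in +/+ livers. The 8 fibroblast markers went the other way without overlap, summing to 9308 to 9454 units in livers labelled Abca1 +/- and 9861 to 10662 in +/+ livers. Most of that sum was Dcn, which averaged 5814 in livers labelled Abca1 +/- and 7379 in +/+ livers. The 7 hepatocyte markers overlapped, at 143551 and 187797 units in livers labelled Abca1 +/- and 151159 and 183366 in +/+ livers. Markers of pericentral hepatocytes did not, at 52569 to 61015 units in livers labelled Abca1 +/- and 62514 to 70143 in +/+ livers. Those of periportal hepatocytes overlapped, at 41829 to 46408 units in livers labelled Abca1 +/- and 39975 to 42736 in +/+ livers. No marker of either zone passed. The part of RNA quality, of liver cell types and zones or of the sex of the mice in the values of the 31 genes was not tested.

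**Figure D5:**
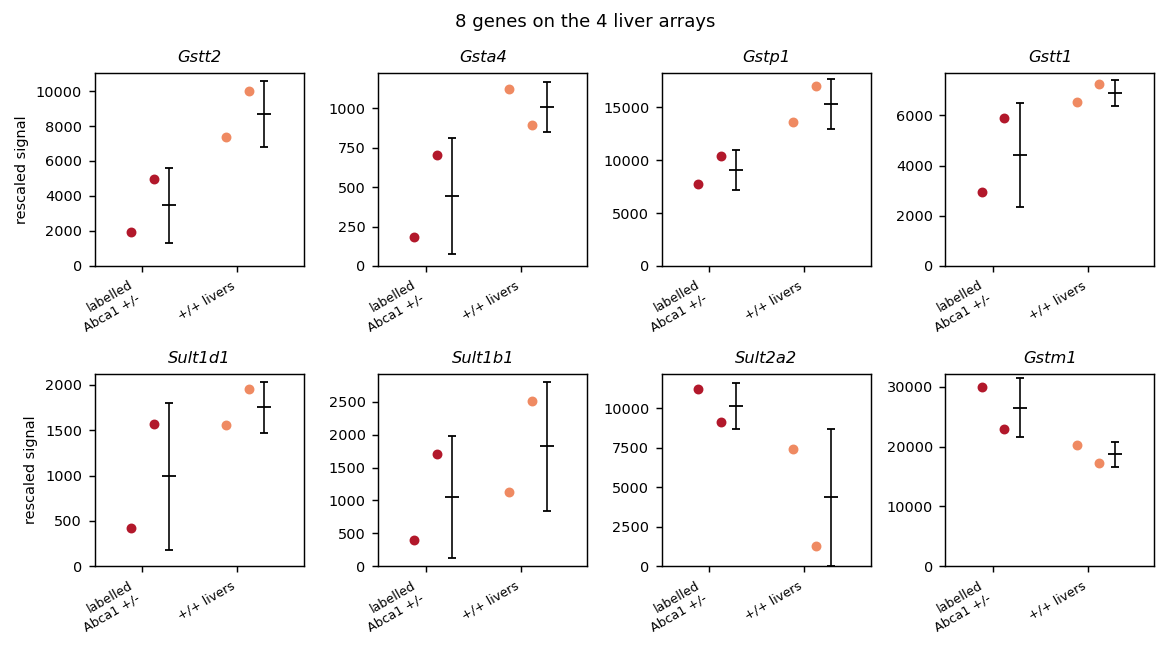
Rescaled signal (linear axes from 0) of 8 genes on the 4 liver arrays, livers labelled Abca1 +/- on the left and +/+ livers on the right, with black marks for mean and SD (n = 2). For Gstt2, Gsta4, Gstp1 and Gstt1 both livers labelled Abca1 +/- are lower than both +/+ livers, for Sult2a2 and Gstm1 higher, and for Sult1d1 and Sult1b1 the first labelled liver alone is lower than the rest.

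The test of whether the Abca1 comparison differed between liver and ES cells passed for 1 of 31 genes, when 9.86% of all probe sets passed (6.87% higher and 2.98% lower). It was Gstp1, whose change in livers labelled Abca1 +/- was set apart from that in Abca1 +/- ES cells by -0.77 log2 units (SE 0.23, adjusted p = 0.0469). The call was lost in 8 of 10 fits that left out 1 array of the 4 groups, with the first labelled liver among them (-0.55, adjusted p = 0.171).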

How the data were processed

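The deposited values are linear signal intensities, 1 per probe set and array, which the authors made with MAS 5.0 at default settings, per the labels. Every array was rescaled to a 2% trimmed mean of 500, 32 was added and log2 taken. Depth has no meaning for arrays, and the small number of arrays limits precision. Testing was limited to non-control probe sets whose rescaled mean, over the arrays being fitted, reached 100. Symbols came from the platform annotation, updated by gene identifier (no symbol changed). Linear models were fitted in limma 3.58.1 under R 4.3.3 (empirical Bayes, intensity trend), with Benjamini-Hochberg adjustment over all tested probe sets; ES comparisons used the 12 ES arrays, the liver comparison the 4 livers, the other 2 all 16 arrays. The procedure was tested on simulated data. For liver against ES cells up to 6 rises and 4 falls per family were to be named, elsewhere every passing gene or, under 5, the 5 (interactions 3) with the smallest p; other members are described to account for all 36. The members and lists were chosen with earlier results of these data known. Alternatives covered pseudocount, filter, scaling, probe set choice, fit and omission of each array.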

Additional observations from a re-analysis of the deposited data

Results flagged for a closer look

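One gene was singled out because its Abca1 comparison differed between the tissues by a test of the difference itself. Gstp1 changed by -0.76 log2 units in livers labelled Abca1 +/- against +/+ livers and by 0.00 in Abca1 +/- against ESVJ cells; the difference was -0.765421 (SE 0.23, adjusted p = 0.0469). It no longer passed with array weights by tissue (adjusted p = 0.202) or in a fit of the 4 groups alone (adjusted p = 0.132), both chosen after seeing the data.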

How the results depend on the processing

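No paired analysis was possible because the labels give no replicate numbers. Between liver and ES cells the same 27 genes were higher and the same 3 lower in each of 16 fits that left out 1 array (counts 27 and 3); of the genes named there, Gsta4 alone lost its call, in the +/+ groups. For Cdk4 +/- against E14, 0 genes were higher with no filter, in a fit of the 2 groups or in a fit of all 16 arrays. With a filter of 200 there were also 0, but Gstm2, at 149 units over the ES arrays, was then not tested. Leaving out 1 array gave 0 to 1 higher and 0 to 1 lower (Aldh9a1, without the third E14 array), when 0.924% to 7.09% of all probe sets passed. For E14 against ESVJ, 8 of 18 were higher over both lines of each pair, beside 24.7% of all probe sets. With 1 array left out 3 to 5 were higher and 4 to 5 lower, when 34.6% to 39% of all probe sets passed. The count of 5 higher came without the third E14 array, when 17.4% of all probe sets were higher and 19.8% lower. Gsta4 also lost its call in the limma fit of all 16 arrays (adjusted p = 0.12). Averaging all probe sets of a gene turned Gstm1 to -0.01 (-0.007157) in E14 against ESVJ and to -0.12 in Abca1 +/- against ESVJ, and leaving out suffixed probe sets turned Aldh7a1 to -0.029 there; these genes then rest on other probe sets. For the livers, the fit of all 16 arrays, which takes in the smaller ES spread (median residual SD 0.215, livers 0.334), gave 1 higher (Sult2a2) and 3 lower (Gsta4, Gstp1, Gstt2); with 1 array left out 0 to 1 were higher and 0 to 6 lower (6 without the second labelled liver, when 9.6% of all probe sets were lower). For the Abca1 effect in liver minus that in ES cells, 0 were lower with array weights or the fit of 4 groups, and with 1 array left out 0 to 3 were higher (3 of 32 without the first +/+ liver, when 8.81% of all probe sets were higher) and 0 to 7 lower (7 of 32 without the second labelled liver, when 10.6% of all probe sets were lower). With 1 array left in a group, it is assumed to vary like the others. The livers are fitted alone, so a fit of only those groups is the same fit. Signals near 0 give only rough folds.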

Other observations

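The probe set shared by 8 Ugt1 genes read 13679 to 19432 units in the 4 livers and 17.8 to 166 in the 12 ES arrays (log2 change 7.64, SE 0.23, adjusted p = 3.08e-15), without overlap. It averaged 52.0 units in ES cells and reached the filter through liver, so it had to be higher there and its p-value is no separate support. Between the liver groups it did not pass (0.17, adjusted p = 0.841). Among other conjugation enzymes outside the 4 families, 8 of 9 tested were higher in liver, beside 29.8% of all tested probe sets. They included Gnmt, the glycine methyltransferase (23699 units in liver, 46.0 in ES cells), Ephx1, the microsomal epoxide hydrolase (4294 and 27.6), and Nnmt, which methylates nicotinamide (2383 and 28.4). These 3 averaged under 100 units in ES cells and reached the filter through liver, as did a group of all probe sets of which 94.9% were higher.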
